A study of Mus musculus with 4 samples.

Results

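Short piRNA-labelled sequences of mouse sperm were examined: distinct sequences of 18 to 25 nt that the authors annotated as piRNA and marked as matching the genome. There were 94763 of them among 1611102 distinct sequences in all, and 201520 genome-matched sequences of 18 nt or longer carried the piRNA label. The members were chosen by length, label and genome match only, and read counts played no part in the choice. Base composition and relation to other sequences were not used directly. The label rests on the sequence, however, so neither is independent of the choice. Small RNA was sequenced in 4 libraries from C57BL mice. The 2 libraries labelled Mdd came from mice given a changing, random series of daily stressors such as cage tilt, restraint and social isolation, which is used to produce depressive-like behaviour. The 2 control libraries came from mice left undisturbed apart from feeding and cage cleaning. The protocol describes RNA taken from sperm, whereas the tissue and cell fields name testis and testicular cells. The number of animals behind a library is not given, and no label says that replicates were separate animals, so p-values here measure only the spread between these libraries, which may be technical.

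piRNAs are small RNAs of the germ line that guide PIWI proteins, and in the adult mouse testis most of them come from long transcripts of dedicated loci and from 3′ untranslated regions of messenger RNAs. A precursor is cut into pieces that usually start with U, written T in the sequences below, and the 3′ end is then trimmed back to the length that the PIWI protein protects. Mature piRNAs are therefore longer than the sequences described here, and a piRNA label on a shorter read says only that it matched a piRNA reference.

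Members are named by length and by rank of mean level at that length, so pi22-1 is the member of 22 nt with the highest mean. Levels are CPM, read counts scaled to a common total of reads of 18 nt or longer in each library (counts per 1000000). The sequences below are shown because they are the most abundant members that differ by 1 base from a tRNA or rRNA sequence of the same files. The capital marks the base that differs, positions are counted from 1 at the 5′ end of the member, and the annotated sequence is given after the member.
pi23-1: gggggtatagctcagtggGagag
tRNA-Cys 5′ end: gggggtatagctcagtggTagag
pi23-3: gggggtatagctcagtggCagag
pi24-1: ggggatgtagctcagtggCagagc
tRNA-Ala 5′ end: ggggatgtagctcagtggTagagc
pi22-1: ggggatgtagctcagtggagag
pi23-2: actaatcctagccctagccctaA
mitochondrial rRNA: actaatcctagccctagccctaCacaaat
pi19-1: ccAtagtgtagtggttatc
tRNA-Val 5′ end: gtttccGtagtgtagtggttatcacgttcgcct
pi18-1: gcattTgtggttcagtgg
tRNA-Gly 5′ end: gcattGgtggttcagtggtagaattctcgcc
pi21-1: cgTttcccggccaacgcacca
tRNA-Gly-TCC 3′ end: cgAttcccggccaacgcacca
pi21-2: cgTttcccggccaatgcacca
tRNA-Gly-GCC or -CCC 3′ end: cgAttcccggccaatgcacca
The substitutions, with the base of the annotated sequence first, were T19G in pi23-1, T19C in pi23-3 and pi24-1, C23A in pi23-2, G3A in pi19-1, G6T in pi18-1 and A3T in both pi21-1 and pi21-2. pi22-1 has no capital, since it lacks 1 inner base of the tRNA-Ala 5′ end.

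A further set shows members that were exact pieces of messenger or long non-coding RNAs. It is shown because these genes differ in the length and the first base of their reads. Capitals mark the member inside a longer piRNA-labelled sequence where that is shown. pi21-33 is also a 5′ piece of such a sequence, which is not shown, and for pi25-12 none was found.
Gm49794, pi23-8 at the 5′ end of a 29 nt sequence: TTTTGGCTCATGGATCTGGAAGTtgaagt
Gm5878, pi22-41 at the 5′ end of a 26 nt sequence: TCCTTGGTTTTGTCTGCTTAGCtagc
Prm2, pi24-6 at the 3′ end of a 26 nt sequence: tcCACAAGAGGCGTCGGTCATGCAGA
Prm2, pi23-65 at the 3′ end of a 27 nt sequence: ggccTGGACAAGACCATGAACGCGAGG
Tbl2, pi21-33: tgtaaaatggggaacgatgct
Col1a1, pi25-12: agacgggagtttctcctcgggacgg
The pieces from Gm49794, Gm5878 and Tbl2 start with T. Of the others, pi24-6 starts with C, pi23-65 with T and pi25-12 with A.

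The members held 868052 and 462027 reads in Mdd replicates 1 and 2, against 376454 and 747708 in control replicates 1 and 2. Total reads were 24031479 and 24112532 in the Mdd libraries and 12845403 and 22948488 in the controls. The size selection started at 18 nt, yet 1.18% and 1.27% of Mdd reads and 24.4% and 27.0% of control reads were 15 to 17 nt, so shares were taken of reads of 18 nt or longer. The median member with any read had 39 and 9 reads in Mdd and 10 and 12 in controls. The files give no molecular identifiers, and PCR copies are not independent molecules, so intervals cover counting error only. Germ cell miRNAs, a marker list of which 15 of 17 had reads (miR-449b and miR-449c were at 0), took 376100 and 289900 CPM of miRNA reads in Mdd and 307800 and 152600 in controls. Markers of muscle, stroma and endothelium, all 9 with reads, took 45460 and 59800 CPM in Mdd against 47380 and 135900 in controls, and blood markers, all 7 with reads, took 58570 and 49270 against 41730 and 6174. The part of other cells in the results below was not tested.

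Short members made up 3.66% and 1.94% of reads of 18 nt or longer in Mdd (mean 2.80% ± 1.21, SD, n = 2) and 3.88% and 4.46% in controls (4.17% ± 0.412, SD, n = 2). The 95% Wilson interval of a share was widest in control replicate 1, at 3.87% to 3.89%. Both Mdd libraries lay below both controls, by 1.37 percentage points in the means, and Mdd replicate 1 lay close to control replicate 1. The exact two-sided permutation p was 0.333, the smallest that 2 against 2 libraries allow. In such bulk libraries fewer cells of a type and less RNA per cell cannot be told apart. The size profile also split by group: reads shorter than 18 nt were 1.18% and 1.27% of all reads in Mdd and 24.4% and 27% in controls. Leaving these reads out does not remove a difference in size selection or processing from the longer ones. Such a difference would go with the Mdd label in these libraries, and its part in the share of short members was not tested. The separation of the groups depended on the denominator. As a share of reads of every length, short members made up 3.61% and 1.92% in Mdd and 2.93% and 3.26% in controls, so the groups overlapped, with a difference of -0.33 points (exact permutation p = 1.0). Relative to all genome-matched piRNA-labelled reads the order turned round: short members took 42.4% and 41.8% of them in Mdd and 39.1% and 34.0% in controls, again without overlap (exact permutation p = 0.333). Without Mdd replicate 2 the difference in the share of reads of 18 nt or longer was -0.514 points. Longer piRNA-labelled reads of 29 to 32 nt, the usual size of piRNAs of the adult testis, took 3.35% and 1.80% of reads of 18 nt or longer in Mdd and 4.26% and 6.15% in controls.

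Most members were found in a single library. Of the 94763, 83.4% had reads in 1 library and 1818 had reads in all 4. Those 1818 members held 29.1% and 27.4% of member reads in Mdd and 27.6% and 18.9% in controls. Members with reads numbered 18939 and 25894 in Mdd and 27086 and 45572 in controls. Sequences with a single read were 30.7% and 12.7% of these in Mdd against 3.90% and 4.51% in controls. The 10 most read members of a library held 7.05% and 9.26% of its member reads in Mdd and 9.03% and 3.38% in controls.

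Member reads were spread over the whole range of lengths. Each length from 18 to 25 nt held between 9.57% and 15.9% of member reads in every library, and the mean length was 21.5 and 21.6 nt in Mdd (21.5 ± 0.0654, SD, n = 2) and 21.5 and 21.3 nt in controls (21.4 ± 0.129, SD, n = 2). The groups overlapped, and the exact permutation p of the difference of 0.116 nt was 0.667. The profile of all genome-matched piRNA-labelled reads had its peak at 30 nt in every library, at 14130 and 7676 CPM in Mdd and 18440 and 27140 CPM in controls. At 25 nt the levels were 4467 and 2318 CPM in Mdd and 4912 and 5770 CPM in controls. Within the short range 19 nt held the most reads in Mdd replicate 1 and both controls, and 21 nt in Mdd replicate 2.

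**Figure D1:**
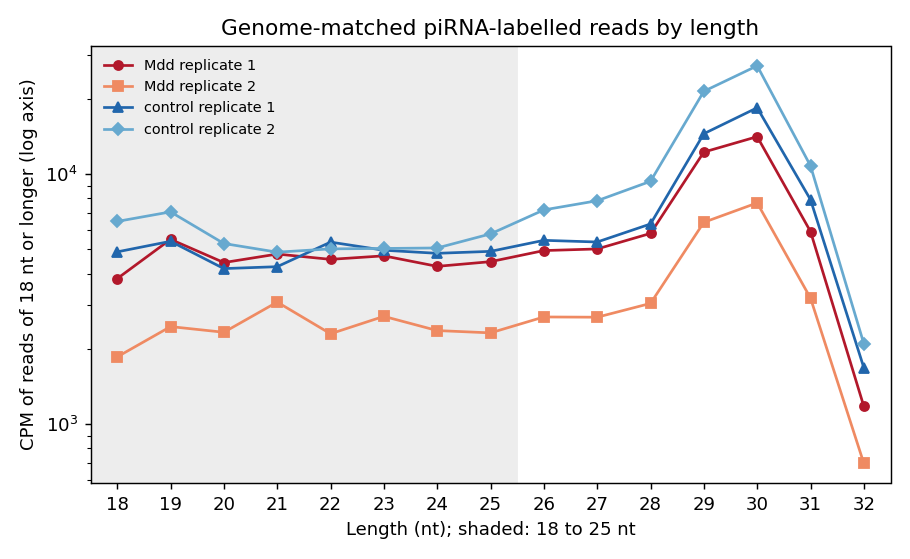
Level of genome-matched piRNA-labelled reads (CPM of reads of 18 nt or longer, log axis) at each length from 18 to 32 nt, with 1 line per library and the range of the short members shaded. All 4 lines change less over the shaded range than between 28 and 30 nt and have their peak at 30 nt, where Mdd replicates 1 and 2 reach 14130 and 7676 CPM and the controls 18440 and 27140 CPM.

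The first base set the short members apart from longer piRNA-labelled reads in every library. T was the first base of 69.8% and 59.9% of member reads in Mdd and of 68.2% and 75.5% in controls. Among reads of 26 to 28 nt the shares were 89.9% and 87.2% in Mdd and 90.1% and 90.6% in controls. Among reads of 29 to 32 nt they were 93.4% and 92.3% in Mdd and 93.2% and 93.1% in controls. Short reads were lower than reads of 29 to 32 nt by 24.6 ± 6.10 percentage points (SD over 4 libraries), in 4 of 4 libraries. An exact sign-flip permutation test over the 4 libraries gave p = 0.125, the smallest it allows, and 0.125 after Benjamini-Hochberg adjustment over 20 such comparisons. Counting each distinct sequence once, 72.5% of members started with T, against 85.5% at 26 to 28 nt and 89.4% at 29 to 32 nt.

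Within the short range the share with first base T was highest at 25 nt in every library, at 84.2% and 77.6% in Mdd and 80.1% and 86.4% in controls. It was lowest at 19 nt in Mdd replicate 1 (59.2%) and control replicate 2 (65.8%), at 21 nt in Mdd replicate 2 (45.2%) and at 22 nt in control replicate 1 (59.9%). At 21 and 22 nt the most read members were pi21-1, which starts with C, and pi22-1, which starts with G. At 19 nt the most read member was pi19-1, which starts with C. It held 3045 of 130313 reads of that length in Mdd replicate 1 and 2909 of 118464 in control replicate 2. The part of single members in the low points was not tested. Between the groups the share with first base T averaged 64.9% ± 7.04 in Mdd and 71.9% ± 5.13 in controls (SD, n = 2 each). They overlapped, with an exact permutation p of 0.667. First base C took 10.9% and 17.5% of member reads in Mdd and 8.65% and 7.45% in controls, and A took 8.87% and 10.5% in Mdd and 7.71% and 8.18% in controls. Neither C nor A overlapped between the groups, each with an exact permutation p of 0.333. A at base 10, the mark left when PIWI proteins cut in pairs, was found in 20.4% and 19.3% of member reads in Mdd and 20.3% and 22.1% in controls, and in 26% and 26.7% of reads of 29 to 32 nt in Mdd and 26.2% and 26.9% in controls.

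**Figure D2:**
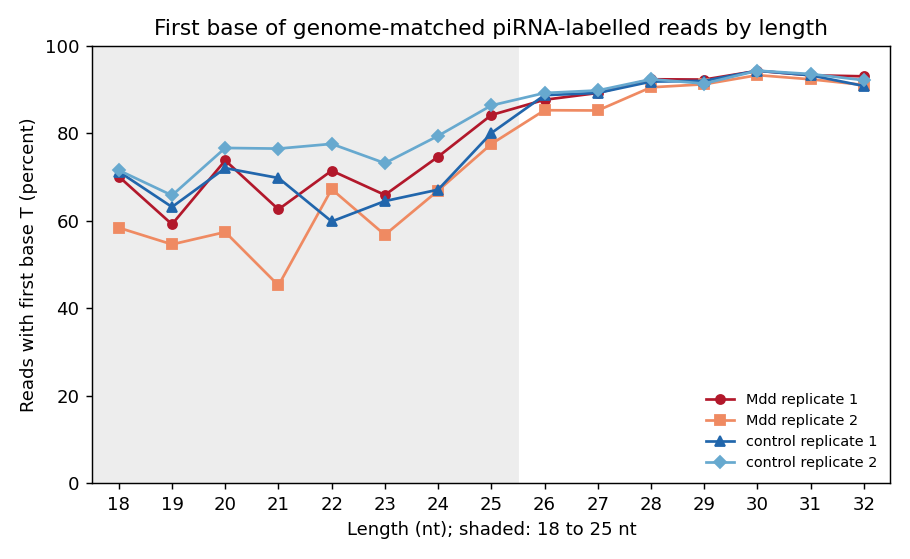
Share of genome-matched piRNA-labelled reads that start with T (percent) at each length from 18 to 32 nt, with 1 line per library and the range of the short members shaded. From 28 nt upward the libraries lie together at 90.5% or more, and over the shaded range they spread apart, down to 45.2% in Mdd replicate 2 at 21 nt.

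Short members were next sorted by their relation to the other sequences of the files, each member counted in the first group that held it. No member was an exact part of a tRNA- or rRNA-labelled genome-matched sequence. A sequence labelled tRNA or rRNA could not be a member, so this may follow from the labelling alone. There were 1307 members 1 substitution away from a stretch of a tRNA- or rRNA-labelled genome-matched sequence. Another 43877 shared their 5′ end with a longer piRNA-labelled genome-matched sequence, and 12441 lay inside one or at its 3′ end. None of these relations was found for 37138 members.

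The 5′ pieces were the main group in every library. They took 58.5% and 52.8% of member reads in Mdd (55.6% ± 4.04, SD, n = 2) and 55.1% and 59.3% in controls (57.2% ± 2.97, SD, n = 2). Inner and 3′ pieces took 9.94% and 10.6% in Mdd and 9.39% and 10.3% in controls. Members 1 substitution from tRNA or rRNA took 5.92% and 6.91% in Mdd and 8.13% and 3.64% in controls. Members with none of these relations took 25.7% and 29.7% in Mdd and 27.4% and 26.8% in controls. All 4 groups overlapped between Mdd and control, with exact permutation p-values of 0.667 to 1.0 and adjusted values of 1.0 over the 4 groups. The direction of the difference in 5′ pieces, -1.53 points, turned to 1.33 without Mdd replicate 2 and to 0.569 without control replicate 2. A longer sequence could be only 1 nt longer: where it had to be at least 26 nt, 5′ pieces took 49.0% and 38.2% in Mdd and 47.2% and 52.3% in controls. Members with no relation then took 33.9% and 42.4% in Mdd and 33.8% and 32.3% in controls, which no longer overlapped (exact permutation p = 0.333).

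**Figure D3:**
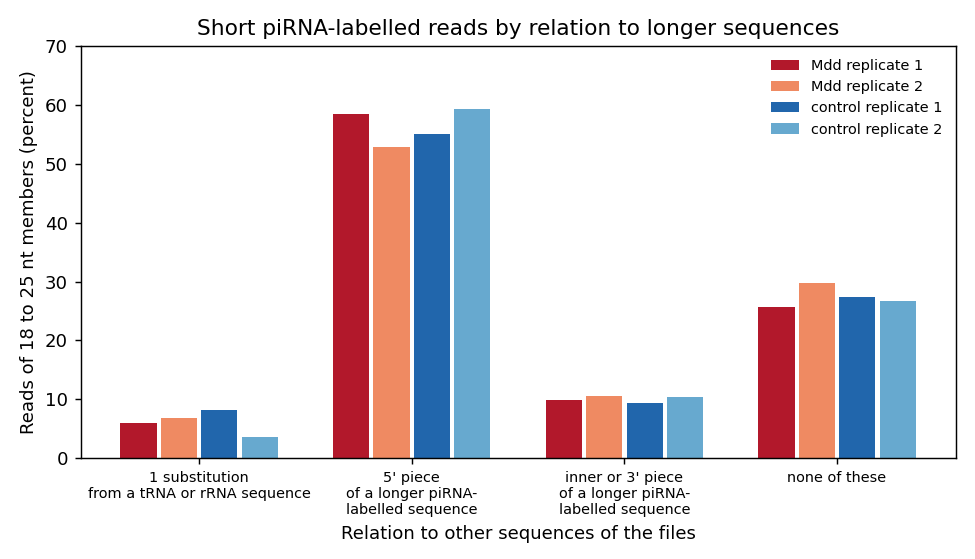
Share of member reads (percent, bars from 0) in each group of relation, with the Mdd libraries left of the controls. 5′ pieces of longer piRNA-labelled sequences hold 52.8% to 59.3% of reads in all 4 libraries, and members 1 substitution from tRNA or rRNA hold 3.64% to 8.13%.

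The groups differed in their first base, which was tied in part to how they were defined. A 5′ piece shares its first base with a longer piRNA-labelled sequence. Of the distinct sequences of 26 to 28 nt and 29 to 32 nt, 85.5% and 89.4% started with T. Members 1 substitution away share the first base of the tRNA or rRNA stretch, unless the differing base is the first. T began 88.1% and 78.0% of the reads of 5′ pieces in Mdd and 89.9% and 92.0% in controls. It began 56.4% and 48.2% of the reads of inner and 3′ pieces in Mdd and 62.7% and 61.2% in controls. Among members with no relation, which include pi22-1 and pi21-2, the shares were 48.7% and 44.4% in Mdd and 45.8% and 54.2% in controls. In that group 26 members, pi22-1 among them, had 1 inner base gained or lost against a tRNA or rRNA sequence. Those 26 held 1.26% and 0.82% of all member reads in Mdd and 3.7% and 0.71% in controls. Members 1 substitution from tRNA or rRNA began with T in 3.11% and 6.16% of reads in Mdd and 3.23% and 3.66% in controls, and with G in 59.3% and 56.7% in Mdd and 76.7% and 66.6% in controls. The groups also differed in how widely they were found: 39.3% of the tRNA- or rRNA-related members had reads in 2 or more libraries, against 26.9% of 5′ pieces and 5.49% of members with no relation.

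5′ pieces and the longer sequences that hold them were often read together. For each member the longer sequence of 26 nt or more with the most reads over the 4 libraries was taken. That choice favours longer sequences with reads. It held the member at its 5′ end for 26218 members, where 38333 were a 5′ piece of any sequence of that length. Of those 26218, where read, 59.9% and 61.2% in Mdd and 63.1% and 76.7% in controls had reads of the longer sequence in the same library. The piece then had a median of 0.583 and 0.417 times the reads of the longer sequence in Mdd and 0.601 and 0.450 times in controls. It outnumbered the longer sequence in 33.8% and 27.2% of cases in Mdd and 31.7% and 23.4% in controls. The longer sequences whose pieces summed to the most reads were not themselves abundant. The first was a member of 22 nt with 1 and 1 reads in Mdd and 0 and 0 in controls, which holds pi21-1 at its 5′ end. The next was a 26 nt sequence with 0 and 0 reads in Mdd and 0 and 1 in controls, whose 16 pieces had 6720 and 10971 reads in Mdd and 2476 and 3281 in controls. Of these, 6036 and 10865 reads in Mdd and 2332 and 3083 in controls lay also in pieces of pi25-7, a member with 684 and 102 reads in Mdd and 144 and 197 in controls.

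tRNA led the members 1 substitution away. Nuclear tRNAs were the partners of 730 of the 1307 and of 75.1% and 54.6% of their reads in Mdd and 91.2% and 87.4% in controls. Those near tRNA-Cys had 602 and 209 CPM in Mdd and 979 and 439 CPM in controls. Those near tRNA-Ala had 432 and 183 CPM in Mdd and 1113 and 296 CPM in controls. Those near mitochondrial rRNA, 29 members, had 443 and 111 CPM in Mdd and 214 and 101 CPM in controls. Each of these 3 overlapped between the groups, and control replicate 1 was the highest library for both tRNAs. The differing base lay inside the member, not at an end, for 1071 of the 1307. With each sequence counted once, 1.38% of the members were 1 substitution away, against 1.13% of the 71525 unannotated genome-matched sequences of 18 to 25 nt. Of the unannotated reads, 1.53% and 1.43% in Mdd and 1.20% and 1.52% in controls were 1 substitution away, below the members' share in all 4 libraries.

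Several of the most abundant members were of this group. pi23-1, next to the tRNA-Cys 5′ end, had 5678 and 1710 reads in Mdd (239 and 71.8 CPM) and 4770 and 3078 in controls (491 and 184 CPM). The tRNA-Cys sequence itself had 39597 and 8486 reads in Mdd and 18886 and 27985 in controls, and thus stood above pi23-1 in every library. pi23-3, which differs from the same sequence at the same position, had 3915 and 2331 reads in Mdd and 1882 and 2097 in controls. pi24-1, next to the tRNA-Ala 5′ end, had 4322 and 1139 reads in Mdd and 4134 and 1845 in controls. pi23-2, next to mitochondrial rRNA, had 10164 and 2342 reads in Mdd (428 and 98.4 CPM) and 1908 and 1585 in controls (197 and 94.6 CPM). Its level was highest in Mdd replicate 1 and next in control replicate 1, and the groups overlapped. pi19-1, next to the tRNA-Val 5′ end, had 128 and 28.4 CPM in Mdd and 143 and 174 CPM in controls, with no overlap (edgeR log2 fold change of -0.88, SE 0.79, adjusted p = 1.0). pi18-1, next to the tRNA-Gly 5′ end and the most read member of 18 nt, had 27.2 and 16.1 CPM in Mdd and 48.7 and 140 CPM in controls, with no overlap (edgeR log2 fold change of -1.83, SE 0.81, adjusted p = 0.442). The member with the highest mean, pi22-1, lacked 1 inner base of the tRNA-Ala 5′ end and had no substitution partner. It had 10718 and 3095 reads in Mdd (451 and 130 CPM) and 13676 and 5007 in controls (1409 and 299 CPM).

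Other abundant members had no tRNA or rRNA partner. pi23-4, a 5′ piece, had 1828 and 6217 reads in Mdd (77.0 and 261 CPM) and 841 and 1357 in controls (86.6 and 80.95 CPM), so Mdd replicate 2 alone stood apart. pi25-1, a 5′ piece and the most read member of 25 nt, had 90.6 and 31.9 CPM in Mdd and 84.0 and 210 CPM in controls. pi20-1, a 5′ piece and the most read of 20 nt, had 61.7 and 6.89 CPM in Mdd and 78.9 and 41.9 CPM in controls. Among inner and 3′ pieces, pi19-5 from the pseudogene Gm34768 had 49.2 and 13.0 CPM in Mdd and 30.3 and 42.1 CPM in controls. pi18-4 from Mbtd1 had 28.6 and 7.52 CPM in Mdd and 49.8 and 25.1 CPM in controls. Their edgeR adjusted p-values ran from 0.845 to 1.0, and Mdd replicate 2 was the lowest library for all of them but pi23-4.

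pi21-1 and pi21-2 were the abundant members with higher levels in both Mdd libraries. pi21-1 had 14665 and 16268 reads in Mdd (618 and 683 CPM) and 2321 and 1103 in controls (239 and 65.8 CPM). The Mdd libraries lay together and above both controls, which lay apart from each other. The log2 fold change was 2.52 (SE 1.07), and with an adjusted p of 0.403 by edgeR it did not pass the threshold of 0.05. pi21-2 had 3991 and 3498 reads in Mdd (168 and 147 CPM) and 694 and 536 in controls (71.5 and 31.97 CPM), with a log2 fold change of 1.99 (SE 0.79, adjusted p = 0.372 by edgeR). Both sit 1 base from the 3′ end of a tRNA-Gly that carries the CCA tail added to mature tRNAs, sequences that the files mark as not genome-matched. They were therefore not in the group of substitutions above, where pi21-1 counted as a 5′ piece and pi21-2 as without relation. pi21-1 also has exact antisense matches to annotated transcripts on chromosomes 10 and 2.

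The tRNA-Gly ends themselves were also higher in both Mdd libraries. The partner of pi21-1 had 2834 and 2283 reads in Mdd (119 and 95.9 CPM) and 380 and 372 in controls (39.2 and 22.2 CPM). The partner of pi21-2 had 614 and 712 reads in Mdd (25.9 and 29.9 CPM) and 111 and 162 in controls (11.4 and 9.66 CPM). As a share of each pair, pi21-1 took 83.8% and 87.7% in Mdd and 85.9% and 74.8% in controls, and pi21-2 took 86.7% and 83.1% in Mdd and 86.2% and 76.8% in controls. These shares overlapped between the groups, and for both pairs control replicate 2 had the lowest. Where tRNA and rRNA sequences were counted whether genome-matched or not, members 1 substitution away took 8.23% and 12.1% of member reads in Mdd and 9.09% and 3.92% in controls.

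**Figure D4:**
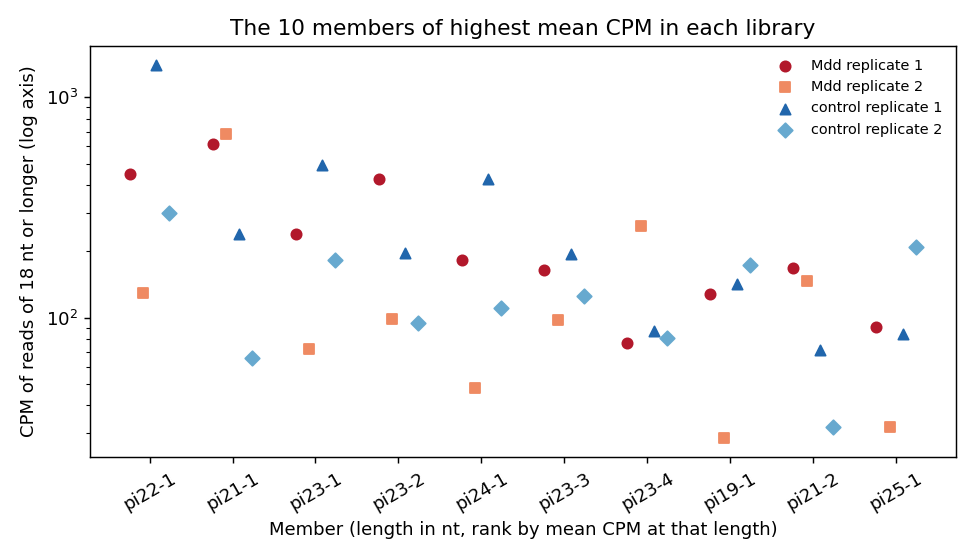
Level of the 10 members of highest mean (CPM of reads of 18 nt or longer, log axis) in each library, with the Mdd libraries left of the controls. pi21-1 and pi21-2 are higher in both Mdd libraries than in both controls, and for pi22-1, pi23-1 and pi24-1 control replicate 1 is the highest library.

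Members near 4.5S RNA, a small rodent RNA that the files list with the rRNAs, were high in Mdd replicate 2 alone. The 265 of them had 60.9 and 402 CPM in Mdd and 33.8 and 53.1 CPM in controls. Sequences labelled 4.5S RNA had 1198 and 14930 CPM in Mdd and 783 and 1228 CPM in controls, so the same library stood apart. The pair below is shown because its member was higher in both Mdd libraries.
pi21-15: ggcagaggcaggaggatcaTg
4.5S RNA: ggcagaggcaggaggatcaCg
The substitution was C20T. pi21-15 had 206 and 641 reads in Mdd (8.67 and 26.9 CPM) and 13 and 8 in controls (1.34 and 0.477 CPM), and its partner had 265 and 18943 reads in Mdd and 138 and 341 in controls. The log2 fold change of pi21-15 was 4.89 (SE 1.30, adjusted p = 0.254 by edgeR).

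Exact matches to annotated transcripts placed part of the members in genes. GENCODE M21 transcripts on GRCm38 matched 26077 members (27.5%) in sense and 6584 (6.95%) in antisense, 22042 members matched 1 gene only in sense, and 64974 matched neither way. By reads, sense matches to 1 gene made up 16.7% and 20.4% of member reads in Mdd and 15.8% and 17.6% in controls. For reads of 29 to 32 nt the shares were 7.12% and 6.11% in Mdd and 6.88% and 6.80% in controls. The part of chance matches, which a shorter sequence makes more readily, was not tested.

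The kind of gene differed with read length. Among reads that matched 1 gene, protein-coding genes held 77.3% and 83.7% of short reads in Mdd and 77.7% and 78.0% in controls, against 51.1% and 50.6% of reads of 29 to 32 nt in Mdd and 50.9% and 46.5% in controls. Long intergenic non-coding RNAs (lincRNAs) held 14.0% and 9.08% of short reads in Mdd and 13.8% and 13.8% in controls, against 41.3% and 41.5% of the longer reads in Mdd and 41.5% and 46.6% in controls. Within coding transcripts, the 3′ untranslated region held 33.2% and 27.3% of short reads in Mdd and 35.7% and 37.8% in controls, against 76.4% and 69.4% of reads of 29 to 32 nt in Mdd and 77.2% and 79.4% in controls. The coding part held 49.0% and 54.0% of short reads in Mdd and 49.1% and 47.8% in controls, against 14.3% and 16.1% of the longer reads in Mdd and 14.2% and 14.6% in controls. Short reads lay below the longer ones for the 3′ untranslated region by 42.1 ± 0.780 percentage points (SD over 4 libraries), in 4 of 4 libraries, and above them for protein-coding genes by 29.4 ± 3.39 points, also in 4 of 4. The exact sign-flip permutation p was 0.125 for each, the smallest possible.

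Genes fell along a range from those read mainly as long piRNA-labelled sequences to those read almost only as short ones. Of 373 genes with 200 or more reads of 18 to 32 nt over the 4 libraries, short reads were under 50% of the total in 98 genes, 50% to 80% in 81 and 80% or more in 194, bounds chosen after the values were seen. The median share was 82.98% for 324 protein-coding genes and 43.9% for 12 lincRNAs. The groups of genes differed in the first base of their short reads. The grouping did not use that base directly, but the base is not independent of the grouping. A short read that starts a longer piRNA-labelled sequence shares its first base, and most longer sequences started with T. Genes of low short share were those with more longer reads than short ones. How much of the difference in first base this accounts for was not tested. In the 98 genes of low short share, the first kind, T began 92.6% and 86.2% of short reads in Mdd and 92.3% and 91.3% in controls. In the 194 genes of high short share, the second kind, it began 28.6% and 27.4% in Mdd and 32.6% and 30.4% in controls. The coding part held 21.3% and 15.2% of short reads from coding transcripts of the first kind in Mdd and 15.9% and 13.9% in controls, and 55.3% and 57.1% of those of the second kind in Mdd and 58.9% and 60.5% in controls.

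Short reads of the 98 genes summed to 1443 and 639 CPM in Mdd and 1561 and 1977 CPM in controls, both Mdd libraries below both controls. Longer reads of the same genes had 2959 and 1383 CPM in Mdd and 3520 and 5022 CPM in controls, the same order of libraries. Short reads of the 194 genes had 1549 and 1153 CPM in Mdd and 1269 and 1469 CPM in controls, which overlapped, and their longer reads had 91.9 and 110 CPM in Mdd and 95.4 and 169 CPM in controls.

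**Figure D5:**
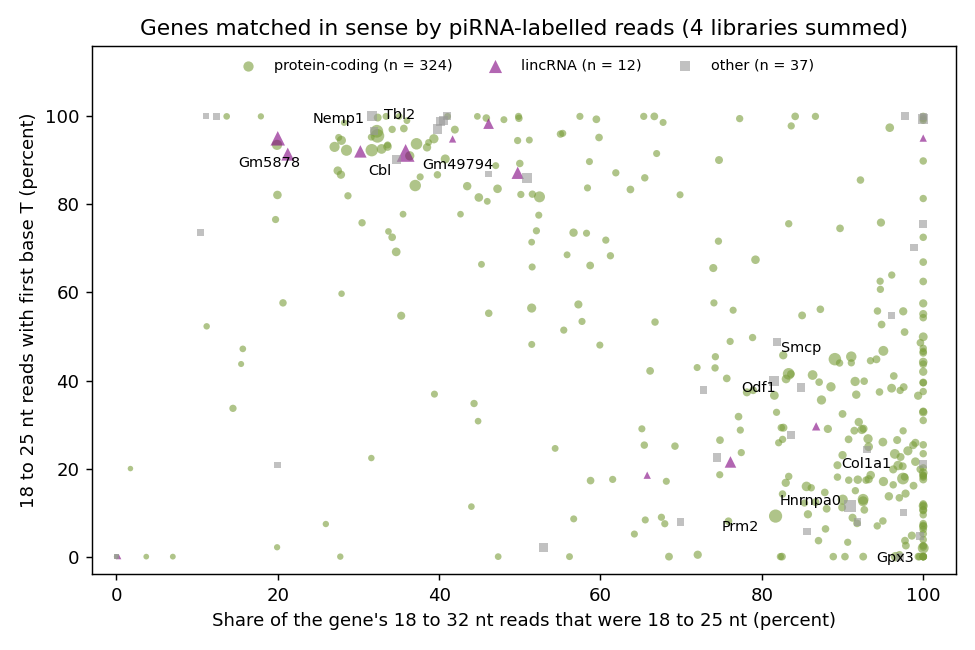
Each point is a gene with 200 or more piRNA-labelled reads of 18 to 32 nt summed over the 4 libraries, with the share of those reads that were 18 to 25 nt (percent, horizontal) and the share of the short reads that start with T (percent, vertical). Larger points have more short reads. Gm49794, Gm5878, Nemp1, Tbl2 and Cbl lie at the upper left and Prm2, Col1a1, Hnrnpa0 and Gpx3 at the lower right.

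The 3 genes with the most short reads were of the first kind. Counts are not scaled by transcript length, so levels are not compared between genes. These genes and those that follow were picked from the genes with many short reads, after the values were seen, and not in strict order. Genes left out include 1700001L05Rik with 5425 short reads. Gm10505 (4167 short reads) and Eif4ebp2 (2374), also left out, lay between the kinds, with short shares of 49.7% and 52.4%. Gm49794, a lincRNA at chr17:27354111-27367492 (GRCm38), held 644 members with 8220 and 3537 reads in Mdd (346 and 149 CPM) and 3336 and 7015 in controls (344 and 419 CPM). Short reads were 40.5% and 34.7% of its reads in Mdd and 34.6% and 32.6% in controls, and 91.7% of them started with T. Gm5878, a lincRNA at chr6:85111416-85126125, held 339 members with 133 and 55.8 CPM in Mdd and 138 and 180 CPM in controls. Among coding genes, Nemp1, which encodes a protein of the inner nuclear membrane, had 99.2 and 34.8 CPM in Mdd and 129 and 130 CPM in controls, with 166 of its 229 members in the 3′ untranslated region. Tbl2 at chr5:135149657-135165760 had 70.7 and 24.2 CPM in Mdd and 90.7 and 106 CPM in controls, with 198 of 203 members there. Cbl, a ubiquitin ligase, had 63.9 and 27.8 CPM in Mdd and 68.8 and 84.8 CPM in controls, with 207 of 210 members there. Ago2, which encodes the slicing Argonaute of the microRNA and siRNA pathway, had 22.8 and 37.6 CPM in Mdd and 47.5 and 66.8 CPM in controls, with 152 of 154 there. Summed over the libraries, short reads were 32.4% of the total for Nemp1, 31.7% for Cbl and 37.2% for Ago2.

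Genes of the second kind included messages of late spermatids. Prm2 at chr16:10791380-10796134, a protamine that packs sperm DNA, held 69 members with 1097 and 2235 reads in Mdd (46.2 and 93.9 CPM) and 561 and 1884 in controls (57.8 and 112 CPM). Short reads were 82.1% and 71.0% of its reads in Mdd and 93.5% and 94.9% in controls, and 9.21% of them started with T. Smcp, whose protein lies in the mitochondrial capsule of sperm, had 75.7 and 31.9 CPM in Mdd and 95.6 and 59.4 CPM in controls, and Odf1, a protein of the outer dense fibres of the tail, had 47.8 and 18.2 CPM in Mdd and 72.5 and 51.9 CPM in controls. Other genes of this kind are not specific to germ cells. Col1a1 at chr11:94936224-94953042, which encodes type I collagen of connective tissue, had 39.5 and 48.8 CPM in Mdd and 45.7 and 45.3 CPM in controls, with 79 of 88 members in the coding part. Hnrnpa0, an RNA-binding protein, had 32.7 and 15.7 CPM in Mdd and 45.3 and 34.7 CPM in controls, with 80 of 92 members in the coding part. Gpx3, a secreted glutathione peroxidase, had 41.8 and 20.4 CPM in Mdd and 26.7 and 30.2 CPM in controls, all of it in 12 short members and none in longer sequences.

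No member passed the threshold in the test of Mdd against control. The edgeR quasi-likelihood fit ran over 79093 annotated sequences of 18 nt or longer, of which 8818 were members, 9.31% of the 94763. At an adjusted p under 0.05 it called 0 members higher and 0 lower, where the share of all tested sequences called was 0% in each direction. At an unadjusted p under 0.05, 68 members were higher and 1810 lower, or 0.771% and 20.5% of the members tested, against 1.26% and 12% of all sequences tested. Of the 1810, 1736 had no read in either Mdd library, and the mean count of their 2 control libraries had a median of 13.5 reads. The lowest adjusted p among members was 0.182, shared by 6 members with 0 and 0 reads in Mdd and 5 and 10 in controls, 1 of which was a 20 nt piece of the coding part of 1700006A11Rik, itself at the 5′ end of a 30 nt sequence. Without Mdd replicate 1 the fit called 328 members higher and 4 lower, where 1.42% and 0.0531% of all sequences tested were called. Without Mdd replicate 2 it called 12 higher and 1 lower, against 0.0864% and 0.0537% of all. These fits tested more members than the 8818 of the main fit. They tested 29018 members among 146831 sequences without Mdd replicate 1, and 31403 among 143507 without Mdd replicate 2. In both, 1 library stands for the Mdd group and is taken to vary like the controls. Without control replicate 1 or control replicate 2 it called 0 members in either direction, against 0.00695% and 0.00253% of all sequences without control replicate 1. With no filter on low counts 1 member was higher and 0 lower (0.022% and 0.00232% of all), and with the replicate number as a block 1 was higher and 0 lower (0.0126% and 0.00506% of all). The median log2 fold change was -0.28 over the members tested and -0.04 over all sequences tested. For the members tested that had reads in all 4 libraries, also 1736 but none of those just counted, the median was -0.10, and 818 of them had a positive value.

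Levels of both Mdd libraries lay below both controls for 3285 members tested (37.3%, where 30.3% of all sequences tested did so) and above both for 380 (4.31%, against 7.84%). CPM levels leave out the TMM scaling factors of the edgeR fit, which were 1.15 and 0.682 in Mdd and 1.16 and 1.11 in controls. Of all sequences tested, 48.9% had a positive log2 fold change with these factors and 40.0% with library size only. By group of relation, the median log2 fold change was -0.32 over 7334 5′ pieces tested, -0.05 over 632 inner and 3′ pieces, -0.11 over 198 members 1 substitution from tRNA or rRNA and 0.03 over 654 members with no relation. A filter on low counts let these through. Of the members tested, 1956 had no read in either Mdd library and 162 had none in either control library. Members that passed the filter through the reads of 1 group only had to be lower or higher accordingly. The counts of members lower and higher, by level or at an unadjusted p under 0.05, and the medians therefore describe the members tested. They do not describe all members.

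Another tool made a few calls. DESeq2 on the same counts called 5 members higher and 5 lower in Mdd, or 10 of 8818, where it called 0.178% of all sequences tested higher and 0.0721% lower. Those higher were pi21-15 and pi23-23 next to 4.5S RNA, pi23-65 from the coding part of Prm2, and pi22-94 and pi24-134. pi21-15 is the 3′ end of pi23-23, so their calls are not separate. Both also match transcripts of Gm31600 and Tmprss11a exactly. pi23-23 had 103 and 585 reads in Mdd and 0 and 0 in controls, and pi23-65 had 86 and 275 reads in Mdd and 0 and 0 in controls. pi24-134, a 5′ piece, had 124 and 103 reads in Mdd and 0 and 0 in controls, and pi22-94, also a 5′ piece, had 32 and 216 in Mdd and 0 and 0 in controls. With 0 reads, the upper limit is 0.309 CPM in control replicate 1 and 0.179 CPM in control replicate 2 (3 reads each), while Mdd levels were 4.34 and 24.6 CPM for pi23-23 and 3.62 and 11.6 CPM for pi23-65. The most read member of Prm2, pi24-6, did not share this order and had 18.7 and 17.9 CPM in Mdd and 23.2 and 37.8 CPM in controls. Those lower by DESeq2 were pi21-31, pi25-65, pi22-47, pi22-91 and pi22-103. pi21-31, a 5′ piece, had 1 and 5 reads in Mdd and 93 and 216 in controls, and pi22-47, which lacks 1 inner base of a tRNA-Ala 5′ end, had 0 and 0 in Mdd and 108 and 61 in controls. In edgeR the adjusted p-values of these 10 ran from 0.219 to 0.285.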

How the data were processed

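Per the file headers, the authors deposited 1 table per library with 1 row per distinct sequence of 15 to 45 nt, its raw read count, length, a genome-match mark and an annotation. Per the labels' protocols, RNA of 18 to 40 nt was selected and libraries were made with a MGIEasy kit. The submitters' processing notes name mm9 and DESeq2. Neither the aligner and the mismatches it allowed nor the piRNA reference is given in the sources used here.

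The deposited counts were joined by sequence. Labels and genome matches of the members did not conflict between files. The members, lists and rules were chosen with earlier results of these data known. edgeR 4.0.16 (quasi-likelihood, TMM, filterByExpr, two-sided, R 4.3.3) was run on annotated sequences of 18 nt or longer with Benjamini-Hochberg adjustment at 0.05. Unannotated sequences, 17.4% and 18.8% of such reads in Mdd and 17.2% and 13.6% in controls, stayed out of it. An SE is the fitted log2 change over the square root of its F value. DESeq2 1.42.0 was an alternative. In simulated tables of the same sequences, the Mdd against control fit called 180 of 200 sequences changed 8-fold at a dispersion of 0.1 and 0 at the fitted dispersion of 2.1. Single values were compared by exact permutation over libraries.

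Substitutions were sought without gaps against genome-matched tRNA- and rRNA-labelled sequences, mitochondrial ones and 4.5S RNA included. Sequences were matched exactly to 141767 GENCODE M21 transcripts (GRCm38). Genes on chromosome 18 were left out of the results by gene. The numbers of matched members and the shares of reads by kind and part of gene include them. Sequences with neither a transcript match nor a relation to tRNA or rRNA are named only. Named members were up to 10 past the threshold per direction or the 5 of lowest p, the 10 of highest mean CPM, the 3 highest per relation, the most read at each length and the 3 longer sequences holding the most member reads. Same-numbered deviations from the group means correlated at 0.0111 over 79093 sequences, and the main fit did not pair the libraries. With 2 libraries per group, this value cannot show whether the replicate numbers mark a shared batch.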

Additional observations from a re-analysis of the deposited data

How the results depend on the processing

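Under RLE size factors, library size only, robust dispersion, a minimum mean CPM of 10, annotated sequences of all lengths and all genome-matched sequences, edgeR called 0 members in either direction. DESeq2 called 5 higher and 5 lower. Without a filter edgeR called 1 higher and 0 lower of 94763. Whether the replicate numbers pair the libraries cannot be told from these data. With the replicate block edgeR called 1 member higher, pi23-23 (adjusted p = 0.00242), and 0 lower. Leaving out each library gave 0 to 328 members called higher and 0 to 4 lower; the cause was not tested.

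The difference in summed reads, Mdd minus control, was -2.23 to -0.514 points with a library left out, -0.330 as a share of all reads and 5.53 as a share of genome-matched piRNA-labelled reads. Mean length differed by 0.0244 to 0.207 nt with a library left out, and by -0.108 nt with each sequence counted once. First base T differed by -11.97 to -2.02 points. Members 1 substitution away differed by -1.71 to 2.78 points, and by -0.617 where 1 inner base gained or lost counted too, an alternative chosen after seeing the data. 5′ pieces ranged over -4.39 to 1.33 and members with no relation over -1.45 to 2.62. Inner and 3′ pieces ranged over -0.0633 to 0.880, and counting each sequence once gave -0.0320. For the values that turned, the cause was not tested. Requiring longer sequences of at least 26 nt, chosen after seeing the data, moved 5′ pieces to -6.15 points, from -1.53, and members with no relation to 5.07, from 0.586. The other alternatives kept the direction of these values. The limit for 0 reads (3 reads) was 0.126 CPM in both Mdd libraries, and 0.309 and 0.179 CPM in controls.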
